A study of Homo sapiens with 14 samples.

Results

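The 8 cyclin-dependent kinase inhibitor genes CDKN1A, CDKN1B, CDKN1C, CDKN2A, CDKN2B, CDKN2C, CDKN2D and CDKN3 were followed through lists of STAT5 and BCL6 intervals from chromatin immunoprecipitation with sequencing (ChIP-seq). They were taken by gene symbol out of 26333 symbols in the lists, and the rule uses no measured value. Together they held 39 intervals in the 4 separate lists: 3 of 14047 in the activator STAT5 list, 1 of 1652 in the inhibitor BCL6 list, 19 of 68393 in the control BCL6 list and 16 of 68320 in the control STAT5 list. The cells were DLD-1, an established line from a human colorectal adenocarcinoma. Activator cells were transfected with the pEGFP-C1199Tiam1 plasmid, which codes for a part of the RAC exchange factor TIAM1, and then given vehicle. Inhibitor cells got the same plasmid and 20 microM of the RAC inhibitor EHT 1864. Both treatments lasted 16 h. Control cells got the empty vector; the labels name no vehicle for them, and inhibitor cells differ from control cells by the plasmid as well as the drug. Chromatin was taken 20 h after transfection in all groups. The lists cover 2 activator STAT5, 3 inhibitor BCL6, 2 control BCL6 and 2 control STAT5 libraries, and the remaining 5 of the 14 libraries (activator BCL6 and inhibitor STAT5) were not analysed here. The labels do not say that replicate libraries came from separate cultures. The lists hold binding intervals and no expression values, so the labelled cell type was not checked against markers.

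Cyclin-dependent kinases drive the cell from one phase of the cycle to the next, and their inhibitors hold them back. CDKN1A (p21), CDKN1B (p27) and CDKN1C (p57) form the CIP/KIP family and bind complexes of cyclins with their kinases, above all those of CDK2. CDKN2A (p16), CDKN2B (p15), CDKN2C (p18) and CDKN2D (p19) form the INK4 family and keep CDK4 and CDK6 from D-type cyclins. CDKN3 belongs to neither family: it codes for a phosphatase that removes an activating phosphate from CDK2. STAT5 and BCL6 are transcription factors that recognise similar sequences, in which TTC and GAA face each other across a short spacer. BCL6 is a repressor and is known to hold down CDKN1A and CDKN1B in B cells.

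That motif was searched for in the promoters that RefSeq gives for the members (build GRCh38.p14, 250 bases before a gene start to 50 after it). Promoters were found for 7 of the 8 members, 10 windows in all, because CDKN2A has 2 listed starts and CDKN2C has 3; CDKN1C had no entry. The motif TTCNNNGAA reads the same on both strands in its fixed letters and stood in 1 of the 10 windows, that of CDKN3, against 7.66% of all 35116 promoters. The match was TTCTAGGAA, which on the other strand reads TTCCTAGAA, at chr14:54396847-54396855, beginning at position -160 from the RefSeq start. The same motif with a spacer of 4 bases was in 0 of the 10 windows, against 6.44% of all promoters. The windows of 4 genes are printed 5′ to 3′ on the strand of the gene, with a match to the motif in capitals: CDKN3 for its match, and CDKN1B, CDKN2D and the outermost start of CDKN2C because these genes carried the treated intervals. The last 3 hold no match and are wholly in lower case, which says only that these letters are not in these windows.
CDKN3 promoter, chr14:54396757-54397056, plus strand: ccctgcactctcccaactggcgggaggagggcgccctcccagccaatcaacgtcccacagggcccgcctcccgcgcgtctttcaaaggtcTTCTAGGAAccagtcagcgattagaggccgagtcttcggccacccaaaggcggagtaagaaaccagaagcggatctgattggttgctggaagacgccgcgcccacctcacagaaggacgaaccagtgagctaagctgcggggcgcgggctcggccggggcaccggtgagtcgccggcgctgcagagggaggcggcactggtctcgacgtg
CDKN1B promoter, chr12:12717118-12717417, plus strand: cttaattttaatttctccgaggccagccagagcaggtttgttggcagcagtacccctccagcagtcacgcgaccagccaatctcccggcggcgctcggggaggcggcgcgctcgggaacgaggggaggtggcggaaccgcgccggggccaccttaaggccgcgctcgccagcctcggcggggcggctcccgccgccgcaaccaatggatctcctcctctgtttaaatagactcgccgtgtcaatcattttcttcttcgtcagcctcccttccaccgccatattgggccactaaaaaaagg
CDKN2D promoter, chr19:10568930-10569229, minus strand: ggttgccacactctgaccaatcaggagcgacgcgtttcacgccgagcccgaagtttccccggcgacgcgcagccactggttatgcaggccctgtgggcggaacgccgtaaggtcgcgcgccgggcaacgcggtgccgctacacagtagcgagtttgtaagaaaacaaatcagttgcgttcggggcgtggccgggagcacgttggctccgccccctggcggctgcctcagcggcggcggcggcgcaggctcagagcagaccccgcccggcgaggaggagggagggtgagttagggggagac
CDKN2C promoter, chr1:50960495-50960794, plus strand: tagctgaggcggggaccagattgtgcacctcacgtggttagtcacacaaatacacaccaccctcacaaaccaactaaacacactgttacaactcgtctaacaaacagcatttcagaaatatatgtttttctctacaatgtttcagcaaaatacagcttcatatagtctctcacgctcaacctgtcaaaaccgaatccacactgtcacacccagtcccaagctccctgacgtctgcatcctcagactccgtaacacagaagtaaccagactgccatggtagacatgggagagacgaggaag
The 10 windows were rich in G and C, with a median of 66.5% and 28 CpG dinucleotides each, against medians of 58.7% and 14 over all promoters. A pair of CDKN2C windows lay below these, at 46.3% with 8 CpG (the outermost) and 49.3% with 11 CpG. The deposited lists use GRCh37 and an Ensembl gene start. RefSeq starts in GRCh38 need not be the same points and were not matched to them, so the windows were not laid over the intervals.

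An interval in the lists carries 1 whole number per library, here called its value; the files do not name the quantity. A value was 0 or at least 2. Listed control intervals have a value in 1 or both of their libraries and listed treated intervals in all of theirs, so the number of intervals does not compare occupancy between conditions. The lists hold only intervals whose lower coordinate lies between 3000 bp upstream and 1000 bp downstream of a gene start. All positions below are GRCh37, and edges are given relative to the listed gene start along the gene, with a minus sign for upstream. A gene can have other starts, so downstream of the listed start need not mean downstream of its main promoter. Whether an interval is exonic or intronic was not analysed here. With 1 list per condition and no values for places outside a list, no test between conditions was possible, and all results are descriptions.

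Of the 8 genes, 2 had an activator STAT5 interval (CDKN1B and CDKN2D), 1 had an inhibitor BCL6 interval (CDKN2C), 8 had a control BCL6 interval and 6 a control STAT5 interval. CDKN1A and CDKN2A had none for STAT5 in control cells. Over all 20056 protein-coding genes of the reference, 26.1% were in the activator STAT5 list, 3.3% in the inhibitor BCL6 list, 73.9% in the control BCL6 list and 74.9% in the control STAT5 list. The members' shares of 25% for activator STAT5 and 75% for control STAT5 were next to these background shares. A gene could be in more than 1 list, and no member was in both treated lists. Every treated interval was at a gene that also had control BCL6 and control STAT5 intervals. The shares of all protein-coding genes in both treated lists and in both control lists were not counted, so neither statement sets the members apart.

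**Figure D1:**
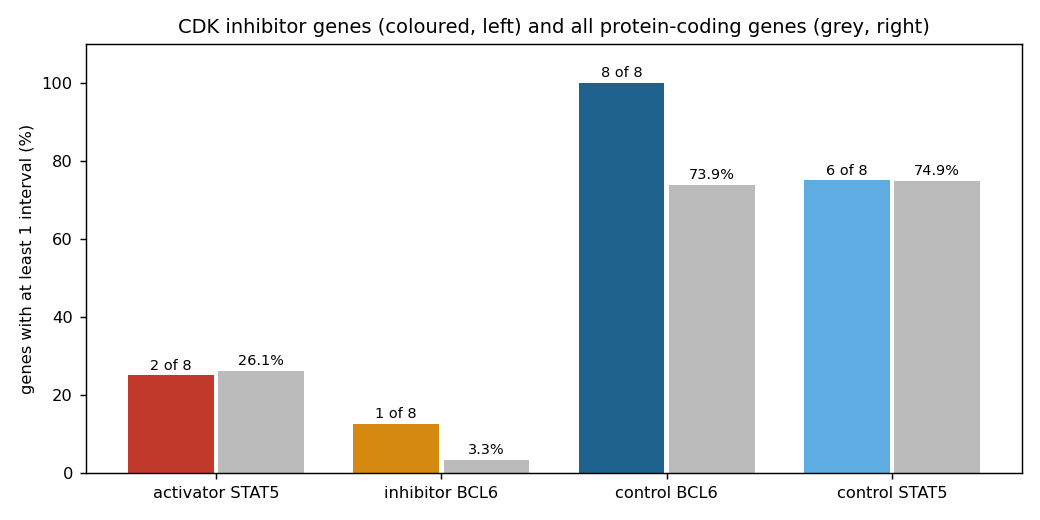
Percentage of genes with at least 1 interval in each separate list (y axis), for the 8 CDK inhibitor genes (coloured bars, with the number of genes above) and for 20056 protein-coding genes (grey bars). The members stand at 2 of 8 beside 26.1% for activator STAT5, 1 of 8 beside 3.3% for inhibitor BCL6, 8 of 8 beside 73.9% for control BCL6 and 6 of 8 beside 74.9% for control STAT5.

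**Figure D2:**
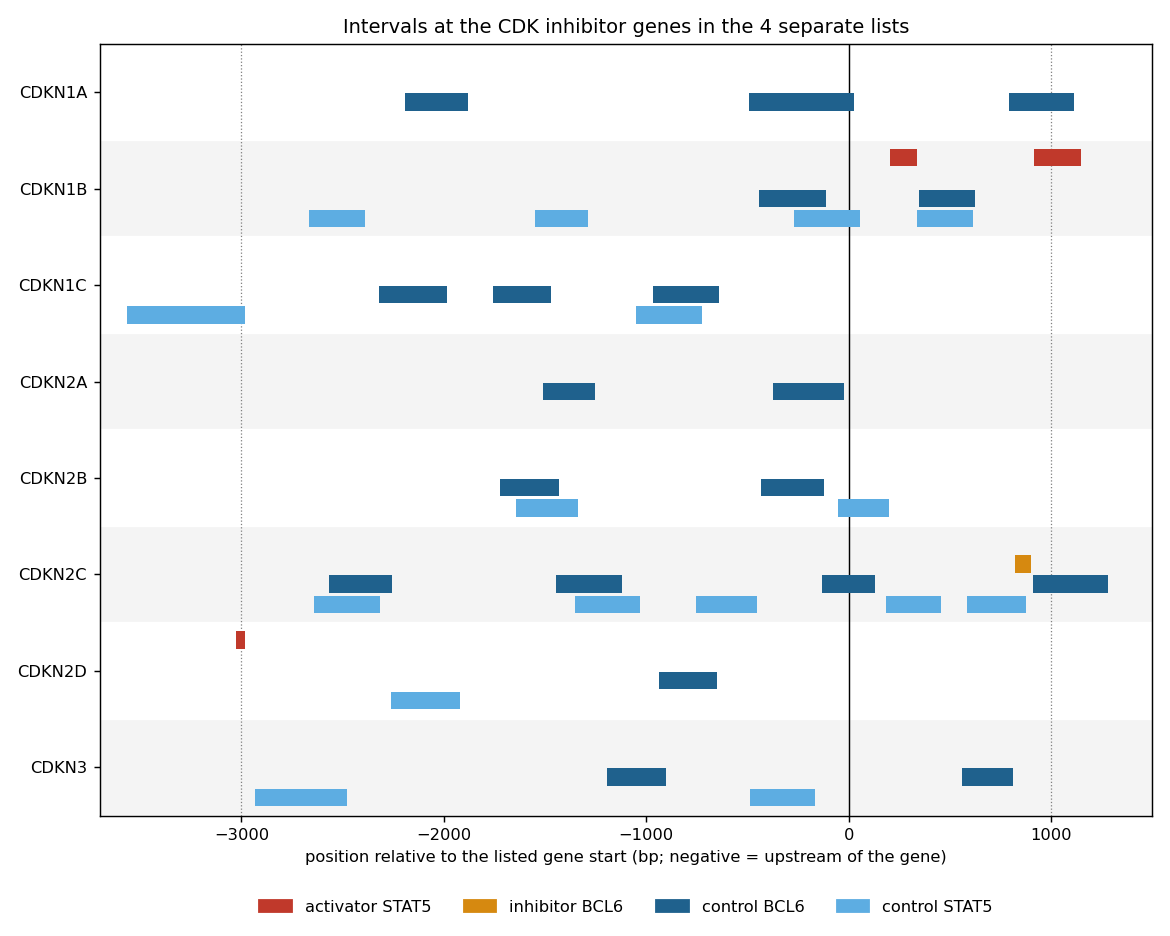
Position of each member interval relative to the listed gene start (x axis, bp, upstream negative), with a lane for each separate list within each gene; bars run from edge to edge, the solid line is the gene start and the dotted lines the limits of the lists at -3000 and 1000 bp. Activator STAT5 bars (red) appear at CDKN1B and CDKN2D, the inhibitor BCL6 bar (orange) at CDKN2C, and control BCL6 bars (dark blue) at all 8 genes.

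Among the CIP/KIP genes, CDKN1B carried both kinds of STAT5 interval. Its listed gene start is at chr12:12867993 on the plus strand. The first activator STAT5 interval, chr12:12868198-12868328, ran from 205 to 335 bp downstream of the start, with values of 2 and 2 in libraries 3 and 9. It was 131 bp wide, and 46.8% of the activator STAT5 list was at most as wide. The second, chr12:12868908-12869137, was 230 bp wide and ran from 915 to 1144 bp, again with 2 and 2. A sum of 4 is the lowest the list allows, and 35.3% of all its intervals have 2 in both libraries. Having 2 or more activator STAT5 intervals was seen in 5.93% of protein-coding genes.

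The first activator interval at CDKN1B lay directly against a control STAT5 peak. The activator interval ended at 12868328, and the control STAT5 interval chr12:12868329-12868604 began at the next base, with values of 0 and 2 in libraries 1 and 7. Such contact with a control STAT5 interval was found for 1 of the 3 member intervals and for 2651 of 14047 over the whole activator STAT5 list (18.9%). Contact with a control BCL6 interval was found for 0.057% of the same list. On the far side the nearest control STAT5 interval, chr12:12867721-12868048, ended 149 bp away and spanned the gene start, with 4 and 0. The second activator interval was 303 bp from any control STAT5 interval. The activator and control lists of STAT5 share no base anywhere in the deposited files, so an activator interval can lie against a control interval of the same antibody but not on it. How far this shaped the edge and width of an activator interval was not tested.

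Control BCL6 intervals also lay near the activator STAT5 intervals of CDKN1B, and none overlapped them. The control BCL6 interval chr12:12868342-12868614 had values of 0 and 2 in libraries 2 and 8 and began after a gap of 13 bp from the first activator interval. It ended 293 bp short of the second. A control STAT5 interval covers 96.3% of it, and the activator STAT5 list shares no base with the control STAT5 list. The lack of overlap with the first activator interval was therefore largely set by the lists. The other control BCL6 interval, chr12:12867551-12867881, lay at -442 to -112 bp, also with 0 and 2. Neither activator interval was in the shared list of activator STAT5 intervals on control BCL6 peaks, which held 0 of the 8 members and 7.43% of protein-coding genes. Had a gap of up to 100 bp counted as shared, CDKN1B would have been its only member gene.

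In control cells both antibodies marked shared places at CDKN1B. The control STAT5 interval beside the activator interval shared 263 bp with the control BCL6 interval at 349 to 621 bp, which is 95.3% of the STAT5 interval and 96.3% of the BCL6 interval. The STAT5 interval across the gene start shared 161 bp with the BCL6 interval upstream of it. Further upstream were STAT5 intervals at -2665 to -2390 bp (values 3 and 0) and at -1552 to -1290 bp (values 0 and 2), the nearer of them 847 bp from a BCL6 interval. With 4 control STAT5 intervals, CDKN1B was among the 7.29% of protein-coding genes that had at least 4.

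CDKN1A had BCL6 intervals and no STAT5 interval in any list. Its listed start is at chr6:36644306 on the plus strand. The interval chr6:36643815-36644331 spanned the start, from -491 to 25 bp, and at 517 bp was the widest control BCL6 interval of the members; its values were 0 and 4 in libraries 2 and 8. A second, chr6:36645096-36645418, lay 790 to 1112 bp downstream and had 2 and 2. It was the only one of the 35 control intervals at members with a value in both libraries. The third, at -2192 to -1884 bp, had 2 and 0 and is also listed for the pseudogene LAP3P2. The nearest listed control STAT5 interval was 17905 bp from a CDKN1A interval, and the nearest treated one, inhibitor BCL6, was 33044 bp away. Intervals away from gene starts are not in the lists.

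CDKN1C, which is imprinted and expressed from the maternal copy, had intervals in the control lists and in neither treated list. Its start is at chr11:2907043 on the minus strand. All 3 BCL6 intervals lay upstream, at -966 to -644, -1759 to -1473 and -2321 to -1988 bp, and each had 0 and 2 in libraries 2 and 8. The STAT5 interval chr11:2907769-2908096 had 2 and 0 in libraries 1 and 7 and shared 241 bp with the first of them. The other STAT5 interval, chr11:2910024-2910606, was the widest control interval of the members at 583 bp, with 0 and 4, and its upstream edge was at -3563 bp. It is in the list because distance is counted to the lower coordinate, which on a minus-strand gene is the edge nearer the gene.

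Among the INK4 genes, CDKN2C held the single inhibitor BCL6 interval and had the most intervals of any member, 10 over the 4 lists. Its listed start is at chr1:51426418 on the plus strand. The inhibitor BCL6 interval chr1:51427240-51427316 ran from 822 to 898 bp downstream, with values of 3, 2 and 3 in libraries 6, 12 and 14. Its values sum to 8, a sum that 54.6% of the inhibitor BCL6 list reached or passed. It was 77 bp wide, against a median of 85 bp. The interval is listed for FAF1 too, a neighbouring gene that codes for a partner of the death receptor FAS, at -1305 bp from that gene's start.

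This CDKN2C interval was also in the shared list of inhibitor BCL6 intervals on control STAT5 peaks, which held 1 of the 8 members and 0.863% of protein-coding genes. It shared 51 bp, 66.2% of its width, with the control STAT5 interval chr1:51427002-51427290. The values of that STAT5 interval were 0 and 2 in libraries 1 and 7, and the shared list gives the same values. The control BCL6 interval chr1:51427326-51427698, with 0 and 3 in libraries 2 and 8, began after a gap of 9 bp. Over the whole inhibitor BCL6 list 23.7% of intervals overlapped a control STAT5 interval. The inhibitor and control lists of BCL6 share no base in the deposited files, so an inhibitor interval can lie beside a control BCL6 interval but not on it. Of the whole list 25.8% lay within 100 bp of one, and 14.3% touched one. Contact with a control STAT5 interval was found for 0.0605% of the inhibitor BCL6 list.

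**Figure D3:**
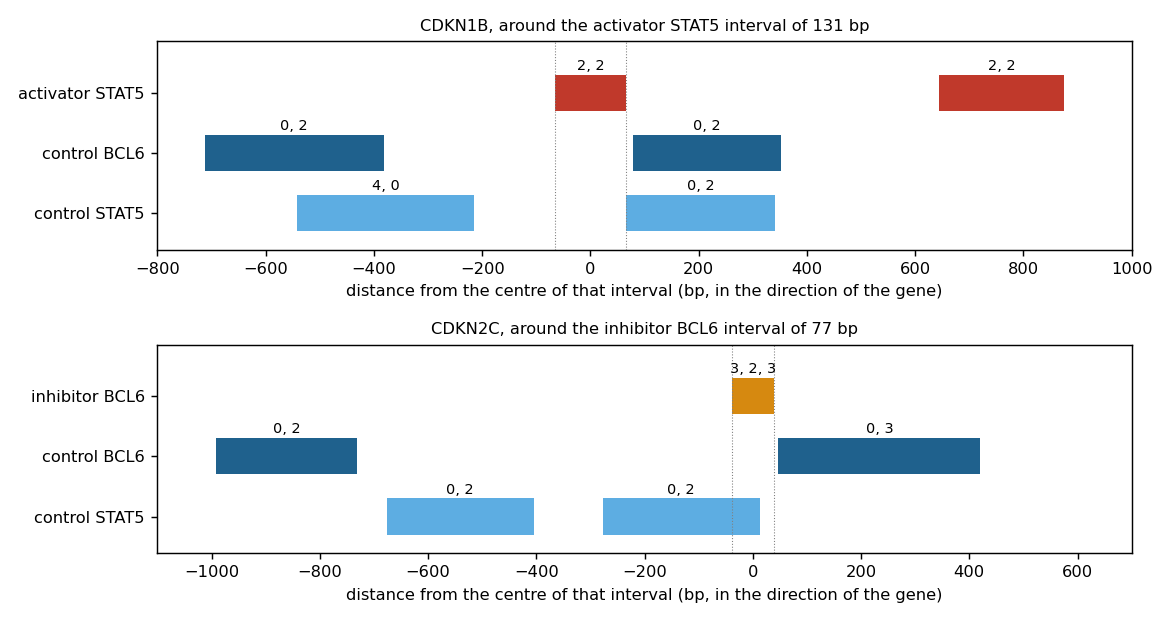
Intervals near the first activator STAT5 interval of CDKN1B (top) and the inhibitor BCL6 interval of CDKN2C (bottom), by distance in bp from the centre of that interval (x axis), with 1 row for each list and the values in its libraries above each bar. At CDKN1B the control STAT5 bar begins where the activator bar ends and the control BCL6 bar begins 13 bp later; at CDKN2C the control STAT5 bar shares 51 bp with the inhibitor bar and the control BCL6 bar begins 9 bp after it.

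The other control intervals of CDKN2C lay on both sides of its listed start. All its control intervals except the most upstream of each antibody are also listed for FAF1, so they are not particular to CDKN2C. BCL6 intervals lay at -2568 to -2257 bp, at -1446 to -1119 bp and across the start at -131 to 128 bp, each with 0 and 2 in libraries 2 and 8. STAT5 intervals lay at -2641 to -2317, -1351 to -1031 and -757 to -454 bp, each with 0 and 3 in libraries 1 and 7, and at 184 to 455 bp with 0 and 2. The 2 most upstream places were shared between the antibodies over 252 and 233 bp. With 5 control STAT5 intervals CDKN2C was among the 1.7% of protein-coding genes with at least 5, and with 4 control BCL6 intervals among the 6.73% with at least 4. All 9 control intervals of this gene had their value in only 1 library, library 8 for BCL6 and library 7 for STAT5, so a single library of each antibody carried them.

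CDKN2D held the third activator STAT5 interval. Its start is at chr19:10679655 on the minus strand. The interval chr19:10682636-10682683 was 48 bp wide, lay at -3028 to -2981 bp and had 2 and 2 in libraries 3 and 9; 18.4% of the activator list was at most as wide. The nearest control STAT5 interval, chr19:10681574-10681918 with 3 and 0 in libraries 1 and 7, was 717 bp away, and the nearest control BCL6 interval, chr19:10680307-10680594 with 0 and 2 in libraries 2 and 8, was 2041 bp away. The activator interval lies at the limit of the lists, so what was beside it on its far side was not analysed here.

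CDKN2A and CDKN2B stand next to each other on chromosome 9 and had control intervals only. CDKN2A codes for p16 and, from its outermost start, for ARF, which binds and restrains MDM2; the start in the lists, chr9:21995300 on the minus strand, is the outermost one. The BCL6 interval chr9:21995326-21995675 began 26 bp upstream of it, with 0 and 4 in libraries 2 and 8. It is listed for CDKN2B-AS1 as well, a long non-coding RNA that runs the other way. A second BCL6 interval at -1509 to -1253 bp had 0 and 2. No STAT5 interval was listed for CDKN2A; the nearest in control cells was 1648 bp from the first BCL6 interval.

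At CDKN2B the gene start, chr9:22009280 on the minus strand, lay inside a control STAT5 interval, chr9:22009084-22009335, with values of 2 and 0 in libraries 1 and 7. The BCL6 interval chr9:22009401-22009716 stood 65 bp from it, upstream, with 2 and 0 in libraries 2 and 8. Farther upstream, the STAT5 interval chr9:22010619-22010922 (3 and 0) and the BCL6 interval chr9:22010714-22011004 (0 and 4) shared 209 bp. Both BCL6 intervals and the upstream STAT5 interval are also listed for the pseudogene UBA52P6.

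CDKN3 had control STAT5 and control BCL6 intervals that did not overlap. Its start is at chr14:54863674 on the plus strand. STAT5 intervals lay at chr14:54860743-54861194, with 5 and 0 in libraries 1 and 7, and at chr14:54863188-54863506, with 2 and 0. The value of 5 was the highest of any member interval. BCL6 intervals lay at chr14:54862480-54862770, with 2 and 0 in libraries 2 and 8, and at chr14:54864231-54864482, with 0 and 2. No STAT5 and BCL6 intervals of CDKN3 came closer than 417 bp. Such a lack of overlap is common, since over the whole list 30.2% of control STAT5 intervals overlapped a control BCL6 interval. Each CDKN3 interval also had a value in only 1 library.

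Over all members, 6 pairs of control STAT5 and control BCL6 intervals shared 161 to 263 bp, at CDKN1B, CDKN1C, CDKN2B and CDKN2C. That is 6 of 16 STAT5 intervals (37.5%) and 6 of 19 BCL6 intervals (31.6%). Over the whole lists 30.2% of control STAT5 intervals overlapped a control BCL6 interval, and 30.1% of control BCL6 intervals overlapped a control STAT5 interval. The members thus stood near the background. Intervals spanned the listed gene start at 4 genes, with BCL6 at CDKN1A and CDKN2C and with STAT5 at CDKN1B and CDKN2B. Only the listed Ensembl start of each gene was used, and its distance from the RefSeq starts was not analysed here.

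Replicate libraries rarely marked the same place. A value in both libraries was found for 1 of 19 control BCL6 intervals of the members (5.26%, exact Clopper-Pearson 95% interval 0.133% to 26.0%, counting error only), against 9.19% over the whole list. It was found for 0 of 16 control STAT5 intervals (upper limit 20.6% by the same interval), against 9.34%. The control BCL6 intervals of the members came mainly from 1 library: library 8 had a value at 16 of 19 and library 2 at 4 of 19, against 58.1% and 51.1% of all intervals. Without library 8, 3 of the 8 genes (CDKN1A, CDKN2B and CDKN3) had a control BCL6 interval, and none of the 6 shared pairs was left. Libraries 1 and 7 of control STAT5 each had a value at 8 of 16; without library 1 the genes left were CDKN1B, CDKN1C and CDKN2C, and without library 7 all but CDKN2C of the 6 were left. The shared-list entry of CDKN2C also rested on library 7. Sequencing depth per library is unknown here, and its part in these differences was not tested.

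**Figure D4:**
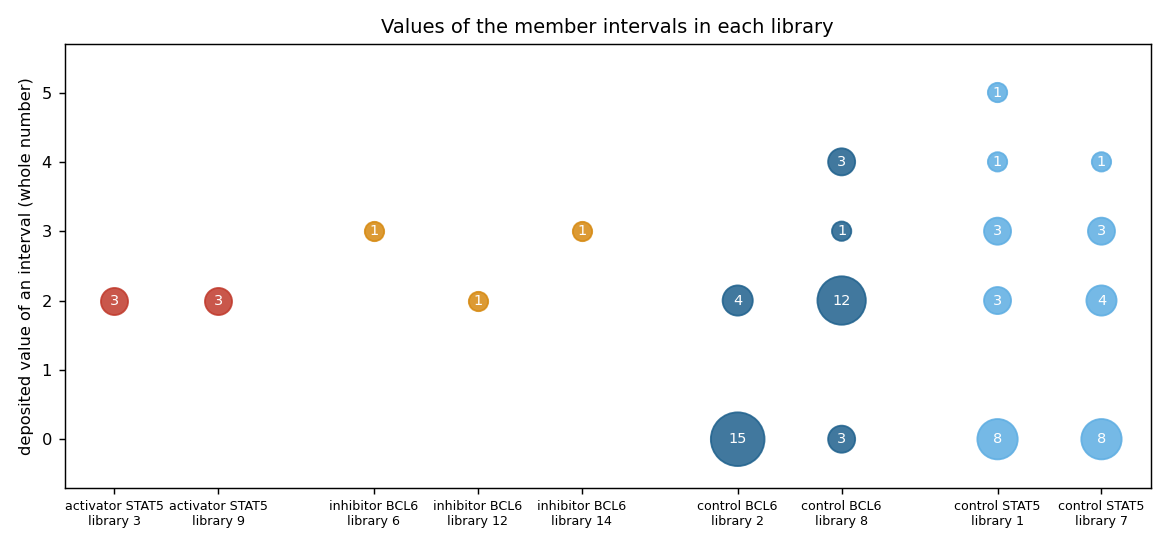
Deposited value of each member interval (y axis, whole number) in each of the 9 libraries (x axis); a circle stands for all intervals with that value, and the number in it is how many. All 3 activator STAT5 intervals have 2 in both libraries, and in control BCL6 a value of 0 is found at 15 of 19 intervals in library 2 and at 3 of 19 in library 8.

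The kinases, cyclins and regulators that work with these inhibitors were read in the same way, from a list of 34 genes. Of these, 12 had an activator STAT5 interval, 3 an inhibitor BCL6 interval, 31 a control BCL6 interval and 28 a control STAT5 interval, which is 35.3%, 8.82%, 91.2% and 82.4%. Over all protein-coding genes the shares in the same order were 26.1%, 3.3%, 73.9% and 74.9%, and no test was made of the difference. By role, activator STAT5 intervals were at 4 of 11 cyclins and kinases, 4 of 9 pocket protein and E2F genes and 4 of 14 regulators of the inhibitors. Inhibitor BCL6 intervals were at 1 gene of each kind, among them CCNE1, which codes for the cyclin E1 that partners CDK2, and E2F5, which codes for a transcription factor that works with pocket proteins. CDK2, the kinase that p21 and p27 block, had an activator STAT5 interval at chr12:56360002-56360065 with 3 and 6 in libraries 3 and 9, 1169 bp from any control STAT5 interval. CDK6, a kinase that the INK4 proteins block, had 3 activator STAT5 intervals with values of 2 and 3, 2 and 3, and 3 and 2.

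CCNE1 and E2F5 were among the genes with both treated kinds. The share of all protein-coding genes with both was not counted. At CCNE1 the activator STAT5 interval had 3 and 2 and the inhibitor BCL6 interval 3, 2 and 4 in libraries 6, 12 and 14. E2F5 had activator STAT5 intervals with 2 and 2 and with 3 and 4, and an inhibitor BCL6 interval with 3, 2 and 2. The inhibitor interval of E2F5, chr8:86088899-86089111, lay within its second activator interval, chr8:86088804-86089130, while the intervals of CCNE1 did not overlap. Over the whole lists 0.52% of activator STAT5 intervals overlapped an inhibitor BCL6 interval, and 4.48% of inhibitor BCL6 intervals overlapped an activator STAT5 interval. MDM2, a ubiquitin ligase, had activator STAT5 values of 2 and 5. RBL1, which codes for the pocket protein p107, had a 27 bp interval with 2 and 5 and a 255 bp interval with 2 and 2. BMI1 and EZH2, Polycomb repressors known for silencing CDKN2A, had 2 and 3 and 2 and 5. Both lay on control BCL6 peaks, over 245 and 176 bp, with control BCL6 values of 0 and 3 in libraries 2 and 8 at each gene. The shared activator list held 6 of the 34 genes (BMI1, CDK1, E2F2, E2F5, EZH2 and TFDP1), against 7.43% of protein-coding genes. Among these 6, only CDK1 had a control BCL6 value in both libraries. The shared inhibitor list held 0 of the 34, against 0.863%.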

How the data were processed

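The measurement was ChIP-seq of STAT5 and BCL6 in DLD-1 cells, in 14 libraries of 6 groups. The submitters' processing notes name Bowtie 0.12.7, CASAVA 1.8.2 and the build GRCh37. What each tool did, how peaks were called and at which threshold is not stated in what was used here. The authors made 6 interval lists with a whole-number value per library, which is treated as a score because the deposited headers name no quantity. Columns were matched to libraries by condition and library number (0 columns unmatched).

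Here, rows with a member's symbol were taken, and each distinct interval was counted once. Overlap was at least 1 shared bp, and contact a gap of 0 bp. Background shares used 20056 protein-coding symbols of RefSeq (GRCh38.p14, names only). Shares have exact Clopper-Pearson 95% intervals. Tools were Python 3.11.15, pandas 2.3.3, SciPy 1.17.1 and Matplotlib 3.10.9; overlaps and motif search were tested on simulated data. Members and lists were chosen with earlier results of these data known. By the rule for named genes, all 8 members were named, and of 34 related genes those with a treated interval, with values for some; 1 of these is not reported here. Alternatives were a stricter value, a narrower window, a minimum width, other overlap rules and leaving out each library. No significance test was made, and library depth is unknown.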

Additional observations from a re-analysis of the deposited data

How the results depend on the processing

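Under 132 alternatives to 27 counts, 87 stayed within 1.5 times and 45 did not. Many of the 87 could not have moved, so their number does not measure stability. A count of 0 stays 0 under a stricter rule or without a library, and treated intervals already have a value in every library. When every library had to reach 3, 0 member genes and 0 intervals were left in every list, and 2, 0, 0 and 1 of the 34 related genes in the activator STAT5, inhibitor BCL6, control BCL6 and control STAT5 lists (0 in the shared activator list). With a value in every library, 1 control BCL6 interval (at 1 gene), 0 control STAT5 intervals and 0 shared inhibitor intervals were left; with at least 3 in both, 0 control BCL6 intervals. Within 1000 bp of the start, activator STAT5 kept 1 gene, CDKN1B, control BCL6 had 11 member intervals and control STAT5 had 8; of the 34, the counts were 4 in activator STAT5, 19 in control BCL6 and 1 in the shared activator list. A width of at least 50 bp left 1 activator STAT5 gene. With a gap of up to 100 bp counted as shared, 1 pair each was found between activator STAT5 and control BCL6, activator STAT5 and control STAT5, and inhibitor BCL6 and control BCL6.

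Leaving out 1 library gave 3 to 8 genes and 4 to 16 intervals in control BCL6, 3 to 5 genes and 8 intervals in control STAT5, 0 to 1 gene and interval in the shared inhibitor list, 0 to 1 pair between inhibitor BCL6 and control STAT5, and 0 to 6 pairs between the control lists. Treated intervals have a value in every library, so leaving one out removes none. With 1 mismatch, the motif stood in 7 of the 10 windows (6 genes), against 66.1% of all promoters, and with the wider spacer in 5 of 10 (3 genes), against 63.2%. Values this low and an unknown depth limit what a single interval shows. No cause of these changes was tested.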

Other observations

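Symbols that begin like the members but name other genes also appear in the lists. CDKN2AIP, which codes for a protein that binds ARF, had 1 activator STAT5 interval at chr4:184366486-184366771, 685 bp downstream of its start, with values of 2 and 2 in libraries 3 and 9. The interval shared 118 bp with a control BCL6 peak and is in the shared activator list, with control BCL6 values of 0 and 2 in libraries 2 and 8. CDKN2AIP had 5 control STAT5 intervals and 2 control BCL6 intervals. CDKN2B-AS1 had 2 control STAT5 intervals and 1 control BCL6 interval, and CDKN2A-AS1 had 1 of each. These genes were looked at after their values were seen.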
